A study of Mus musculus with 4 samples.

Results

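The regions described here are 3085 stretches of open chromatin that lay between genes and were found in every library of a mouse palate study. Peaks of the 4 libraries on chromosomes 1 to 19 and X were merged where they shared at least 1 bp, which gave 39843 regions. A region was kept when all 4 libraries had a peak in it, when it was under 2000 bp wide, and when its midpoint lay outside every protein-coding gene, more than 1 kb and at most 100 kb from the nearest one. Of the 18904 regions held by all 4 libraries, 18266 were under 2000 bp, and the 3085 intergenic regions were 16.9% of these. The others of that width comprised 9192 regions within 1 kb of a gene end, 4621 inside genes and 1368 more than 100 kb from any gene. Presence in all libraries, position and width chose the regions, so these 3 properties are given as description only.

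ATAC-seq uses a transposase that cuts and tags open DNA, and it was applied here to mesenchymal cells of the palate at E14.5. The cells were sorted by flow cytometry for green fluorescence, and 50000 of them were pooled for each group. The control group (Shox2Cre/+;Nkx2.5F/F;R26RmTmG) and the mutant group (Shox2Cre/-;Nkx2.5F/F;R26RmTmG) had 2 libraries each. Shox2 is a homeobox gene active in the anterior palate. In both groups Cre was expressed from the Shox2 locus, Nkx2.5 was homozygous for a floxed allele that Cre can cut, and the R26R mTmG reporter turned cells green after Cre had acted. The controls kept 1 intact Shox2 allele and the mutants none, so neither group was wild type at Shox2 or Nkx2.5. Only cells with a history of Shox2 expression were sampled. Nothing in the labels says whether the 2 libraries of a group stem from different embryos, and their spread may be technical.

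Open chromatin away from gene ends marks enhancers, which bind transcription factors and act on genes at a distance, as well as insulators and promoters of RNAs that encode no protein. Long noncoding RNAs (lncRNAs) start at promoters of their own, and transfer RNA genes carry internal promoters read by RNA polymerase III. Promoters rich in the dinucleotide CpG are often open in many cell types, and GC boxes within them bind Sp/KLF factors, whereas enhancers are more often open in some tissues only. The nearest gene of a region is a name for its place and not a statement of the gene it acts on.

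Of the 3085 regions 242 (7.84%) held the start of at least 1 lncRNA, a feature that the rule did not use. The windows printed here run 5′ to 3′ on the strand of the lncRNA, from 250 bases before its start to 50 after it, from RefSeq (GRCm38.p6, the assembly of mm10). They are shown because CpG and the GC box were more frequent at the starts inside the regions than at those outside. Capitals mark the GC box, GGGCGG on either strand (CCGCCC on the strand shown). The first pair lay in regions among the 10 strongest of the 3085. Chaserr, a lncRNA known to restrain its neighbour Chd2, starts at 73558395 on the minus strand of chromosome 7 (window chr7:73558346-73558645), inside the region chr7:73558008-73559377, 16.9 kb from Chd2. Snhg8, a small nucleolar RNA host gene, starts at 123508336 on the minus strand of chromosome 3 (window chr3:123508287-123508586), inside chr3:123508025-123509418, 2.12 kb from Prss12.
Chaserr: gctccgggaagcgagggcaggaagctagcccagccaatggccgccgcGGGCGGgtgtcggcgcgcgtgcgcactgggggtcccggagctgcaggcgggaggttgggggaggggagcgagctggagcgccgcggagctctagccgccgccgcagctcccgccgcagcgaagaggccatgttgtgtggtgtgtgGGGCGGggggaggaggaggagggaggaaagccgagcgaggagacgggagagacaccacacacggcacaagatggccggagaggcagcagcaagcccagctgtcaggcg
Snhg8: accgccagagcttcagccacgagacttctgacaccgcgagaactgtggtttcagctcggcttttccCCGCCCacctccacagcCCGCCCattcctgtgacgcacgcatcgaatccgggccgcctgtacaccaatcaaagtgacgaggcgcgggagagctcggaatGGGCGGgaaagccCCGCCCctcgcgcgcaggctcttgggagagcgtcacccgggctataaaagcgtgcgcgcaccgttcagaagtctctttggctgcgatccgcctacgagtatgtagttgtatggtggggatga

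Windows of 4 more lncRNAs were picked for their known names or their GC boxes after the values were seen. All 4 lay in strong regions, with lowest percentiles above the median of 51.6 of the 242 regions with a lncRNA start. D130051D11Rik starts on the plus strand (window chr15:85634346-85634645), 52.9 kb from Wnt7b. Crnde starts on the minus strand (window chr8:92356071-92356370), 1.64 kb from the homeobox gene Irx5. Dancr starts on the plus strand (window chr5:74092810-74093109), 24.7 kb from Usp46, a ubiquitin protease gene. Kantr starts on the minus strand (window chrX:152327444-152327743), 9.40 kb from Tspyl2, and its window holds no GC box.
D130051D11Rik: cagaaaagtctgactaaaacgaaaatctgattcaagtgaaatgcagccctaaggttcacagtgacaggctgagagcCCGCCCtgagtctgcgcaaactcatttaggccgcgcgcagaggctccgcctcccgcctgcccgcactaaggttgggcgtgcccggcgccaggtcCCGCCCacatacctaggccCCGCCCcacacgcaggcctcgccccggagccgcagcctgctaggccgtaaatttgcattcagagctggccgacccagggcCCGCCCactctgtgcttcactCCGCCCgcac
Crnde: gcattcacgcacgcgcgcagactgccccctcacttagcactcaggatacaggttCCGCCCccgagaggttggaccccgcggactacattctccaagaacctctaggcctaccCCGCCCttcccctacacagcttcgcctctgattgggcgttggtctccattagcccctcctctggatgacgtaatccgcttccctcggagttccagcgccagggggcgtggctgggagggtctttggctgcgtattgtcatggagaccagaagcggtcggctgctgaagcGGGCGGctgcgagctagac
Dancr: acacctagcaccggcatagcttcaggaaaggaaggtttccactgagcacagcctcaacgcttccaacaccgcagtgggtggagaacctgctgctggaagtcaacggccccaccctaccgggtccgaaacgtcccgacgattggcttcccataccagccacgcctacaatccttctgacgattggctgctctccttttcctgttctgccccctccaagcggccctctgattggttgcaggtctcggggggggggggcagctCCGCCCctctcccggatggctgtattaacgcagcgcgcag
Kantr: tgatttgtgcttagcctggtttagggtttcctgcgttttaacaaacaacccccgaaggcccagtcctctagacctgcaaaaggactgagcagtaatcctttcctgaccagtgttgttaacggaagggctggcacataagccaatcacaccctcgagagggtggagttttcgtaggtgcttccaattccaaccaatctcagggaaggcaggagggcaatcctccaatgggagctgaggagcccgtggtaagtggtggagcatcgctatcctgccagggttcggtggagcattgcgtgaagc

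For contrast, the next windows belong to lncRNA starts that lay in no region of any library. Gm30149 starts 42.1 kb from the start of Chaserr, on the same strand (window chr7:73600454-73600753). Gm40143 starts 74.1 kb from the start of Snhg8, on the plus strand (window chr3:123433965-123434264). Chaserr and Snhg8 each held 30 CpG in their window, against 2 in that of Gm30149 and 0 in that of Gm40143. The GC content was 72.3% for Chaserr and 62.0% for Snhg8, against 37.3% and 34.0% for the contrasts. These pairs lie further apart than the sets they come from. The median window inside the regions had 10 CpG and 55.0% GC, that outside every region 3 CpG and 47.3% GC.
Gm30149: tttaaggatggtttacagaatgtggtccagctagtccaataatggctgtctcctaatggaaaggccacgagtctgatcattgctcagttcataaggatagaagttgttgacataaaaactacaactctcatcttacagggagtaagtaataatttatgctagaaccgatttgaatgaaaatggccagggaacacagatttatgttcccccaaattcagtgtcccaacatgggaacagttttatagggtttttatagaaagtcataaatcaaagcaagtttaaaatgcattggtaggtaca
Gm40143: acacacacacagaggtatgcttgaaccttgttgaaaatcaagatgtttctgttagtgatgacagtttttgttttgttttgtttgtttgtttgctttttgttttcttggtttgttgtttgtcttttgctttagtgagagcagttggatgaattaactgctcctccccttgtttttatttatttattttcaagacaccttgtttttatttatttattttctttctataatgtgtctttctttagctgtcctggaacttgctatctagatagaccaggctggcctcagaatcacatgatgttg

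Marker genes of the labelled tissue and of other cell types were described by whether a region of all 4 libraries lay at a gene end. Of the mesenchyme markers 6 of 10 had such a region, and Prrx1, Prrx2, Pdgfra and Col3a1 had none. Among all protein-coding genes 10821 of 21631 had such a region, so the mesenchyme count does not by itself show the tissue. Other cell types the sort could hold gave 3 of 10 epithelial, 4 of 7 neuron, 3 of 6 Schwann and glial, 1 of 7 skeletal muscle, 2 of 7 endothelial, 2 of 7 blood and immune and 3 of 6 pericyte and smooth muscle markers. Among the markers without one were Krt5, Krt14 and Trp63 of epithelium, Myod1, Myf5 and Myog of muscle, Pecam1 and Cdh5 of endothelium, Ptprc of blood and Sox10 of glia. Over the whole marker lists, with and without a shared region at a gene end, intergenic regions numbered 6 at epithelial, 6 at mesenchyme and 6 at endothelial markers and 0 at muscle or pericyte markers. Cdh5 had 3 of them, Grhl2 of epithelium 2 and Prrx1 of mesenchyme 1, without a shared region at their ends. An open region does not show that its nearest gene was transcribed, and how far cells of other types contributed was not tested. The lists used held 30225 peaks for control 1, 22959 for control 2, 29217 for mutant 1 and 31821 for mutant 2, and the read depth behind them is unknown. Control 2, the shortest list, stood apart from the other libraries in the values that follow, and without it the intergenic share of shared regions under 2000 bp was 19.03%.

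Distances to the nearest gene ran from 1.001 to 99.881 kb with a median of 22.4 kb and quartiles of 9.26 and 47.2 kb. Widths ran from 387 to 1993 bp, with a median of 1011 bp. At the limits of the rule, 66 regions lay 1000 to 1500 bp from a gene while 81 shared regions lay 500 to 1000 bp away, just outside. Likewise 104 lay 90 to 100 kb away and 98 shared regions lay 100 to 110 kb away. The closest region was near Scgb1a1, a secretoglobin gene, and the nearest shared region excluded for closeness lay 999 bp from Tex2. The farthest was 99.9 kb from Btg1, an antiproliferative gene, and the first beyond the limit lay 100105 bp from Rspo3, a gene of a WNT enhancer protein. Of the widths, 34 were 1800 bp or more, and 27 shared intergenic regions of 2000 bp or more were left out, the narrowest of which, 2026 bp, lay near Snap25.

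Per megabase of intergenic DNA the regions were spread evenly over distance. There were 3.69 per Mb at 1 to 5 kb, 4.06 at 5 to 10 kb, 4.09 at 10 to 25 kb, 4.03 at 25 to 50 kb and 3.48 at 50 to 100 kb, against 3.86 per Mb in all. The number of regions was 414, 420, 803, 738 and 710 in these classes. Strength changed little with distance as well, with a median lowest percentile between 37.6 and 40.5 in the 5 classes. The percentile of a peak is its position when all peaks of its own library are ordered by the authors' −log10 p, from 0 for the weakest to 100 for the strongest, and the lowest percentile of a region is the smallest over the 4 libraries.

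Close to genes the regions were more numerous on the downstream side. Where the strand of the nearest gene was known, 1195 regions lay upstream of it and 1186 downstream. For 698 regions the nearest gene had no RefSeq start window, from which the strand was taken. Regions of known strand beyond the outermost gene of a chromosome are not in these counts. Within 1 to 5 kb, 117 lay upstream and 214 downstream, which is 2.502 and 5.02 per Mb. From 5 to 10 kb the densities were 3.78 upstream and 4.31 downstream, and at 50 to 100 kb the order turned, with 3.65 upstream and 3.12 downstream. Intergenic regions found in only 1 to 3 libraries showed the same tilt at 1 to 5 kb, with 39.4% upstream against 35.3% here. Position helped to choose the regions, so no test was made.

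**Figure D1:**
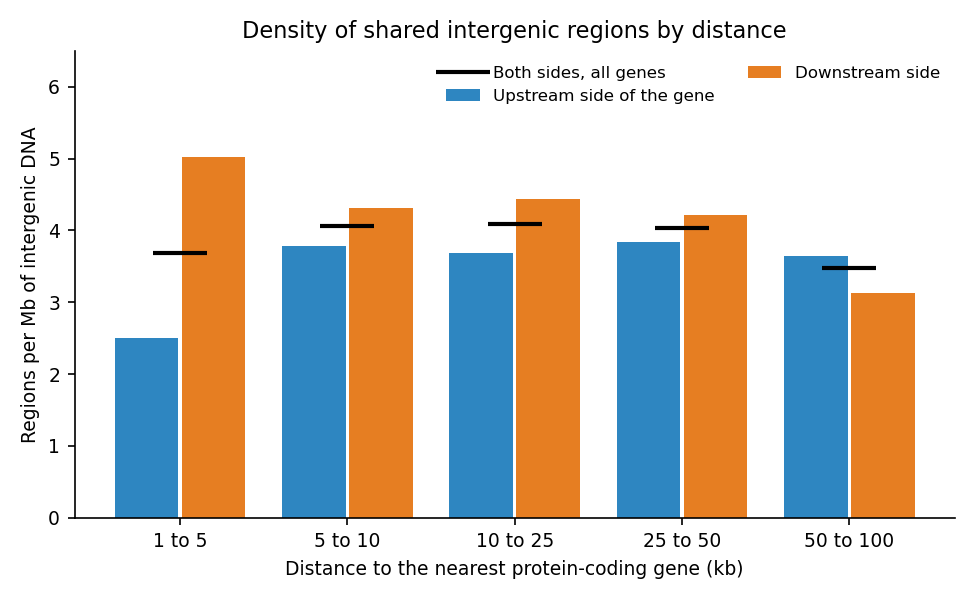
Shared intergenic regions per megabase of intergenic DNA (vertical axis) by distance to the nearest protein-coding gene in kb (horizontal axis), for upstream and downstream sides of genes of known strand (bars) and for all genes (black lines). The 1 to 5 kb class shows 2.502 per Mb upstream and 5.02 downstream, while the lines stay between 3.48 and 4.09.

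Intergenic regions were recovered in every library less often than regions at gene ends. Of all 9753 intergenic regions 1 to 100 kb from a gene, 3112 (31.9%) held a peak in all 4 libraries before the limit on width. The share was 83.9% within 1 kb of a gene end, 35.3% inside genes and 27.3% beyond 100 kb. These shares describe the rule itself.

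Where they were recovered, the intergenic regions were weaker than those at gene ends. The median percentile of the 3085 regions was 56.0 (control 1), 42.5 (control 2), 54.3 (mutant 1) and 58.0 (mutant 2), and at gene ends it was 79.7, 73.2, 78.9 and 80.5. All 4 libraries had the intergenic median below the gene-end median, and the value in control 2, the shortest list, was the lowest in both classes. The difference averaged −25.4 ± 3.66 percentile points (SD, n = 4 libraries; two-sided exact sign-flip permutation test over libraries, p = 0.13, adjusted p = 0.13 over 9 comparisons). Restricting each list to its upper 50% gave −10.5 points. With 4 libraries 0.13 is the smallest p this test can give, so no comparison across libraries could pass 0.05. The authors' fold enrichment had medians of 7.54, 6.81, 6.99 and 7.38 against 9.08, 8.27, 8.52 and 8.86 at gene ends, a difference of −1.51 ± 0.0425 (SD, n = 4; exact permutation p = 0.13), which was −0.630 in the upper 50% of each list. Median peak widths were 849, 815, 850 and 860 bp against 1108, 1084, 1099 and 1117 bp.

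Against regions inside genes and beyond 100 kb the differences were small. Regions inside genes had median percentiles of 59.7, 47.1, 58.5 and 62.0, and the intergenic ones lay 4.14 points lower (difference −4.14 ± 0.390, SD, n = 4, lower in 4 of 4 libraries; exact permutation p = 0.13). Their fold enrichment was nonetheless slightly higher in 4 of 4 libraries, by 0.0830 ± 0.0165 (SD, n = 4; exact permutation p = 0.13), and by 0.150 in the upper 50% of each list. Regions beyond 100 kb had median percentiles of 52.6, 37.97, 53.2 and 57.3, and the intergenic ones lay 2.44 ± 1.86 points higher (SD, n = 4, higher in 4 of 4; exact permutation p = 0.13). In that comparison the fold enrichment went the other way, with a difference of −0.196 ± 0.129 (SD, n = 4; exact permutation p = 0.13), or −0.100 in the upper 50% of each list. The 2 measures of strength thus disagreed in direction for both classes.

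**Figure D2:**
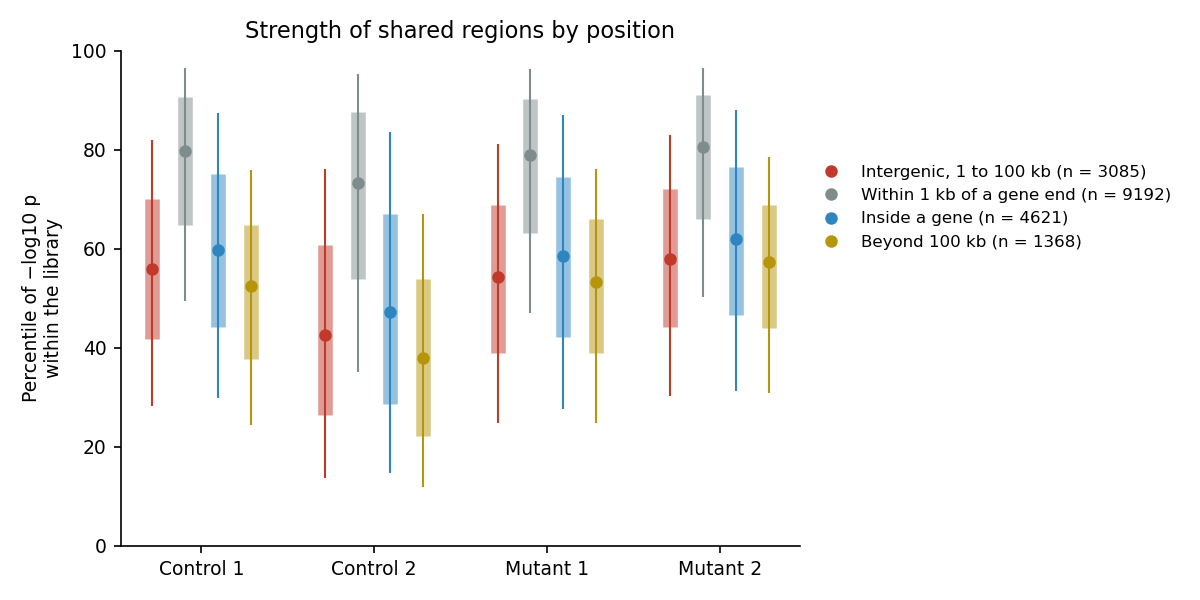
Percentile of −log10 p within its own library (vertical axis, 0 to 100) for shared regions under 2000 bp of 4 position classes in each library; points are medians, boxes the 25th to 75th percentile and lines the 10th to 90th. Intergenic medians were 42.5 to 58.0 and lay below the gene-end medians of 73.2 to 80.5 in all 4 libraries.

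Summits, the points within peaks that the authors' files mark as highest, lay close together in the 4 libraries. The distance between the outermost of the 4 summits of an intergenic region had a median of 103 bp, and 17.0% of the regions had all 4 within 50 bp. At gene ends the median was 92 bp and the share 23.8%, inside genes the median was 104 bp and beyond 100 kb it was 109 bp.

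The strongest region stood far above the rest. At chr1:24612356-24613356, 24.9 kb upstream of the collagen gene Col19a1, the −log10 p was 4967 and 4659 for the controls and 5358 and 5685 for the mutants, with fold enrichments of 30.2, 28.7, 30.3 and 29.4. The region overlapped the pseudogene Gm10222, and the 4 values were alike in both groups. How reads were placed at this pseudogene is not known from the peak lists. Whether its extreme values measure open chromatin at this place was not tested. At chr11:109011479-109012222, inside the lncRNA Gm36876 and 61.1 kb downstream of Axin2, a gene of a WNT inhibitor, the −log10 p was 879, 578, 806 and 884. The third, 6.92 kb from Mier3 (chr13:111724900-111726131), had 287, 192, 290 and 317, and control 2 was again the lowest. The next 7 lay nearest to the glucose transporter gene Slc2a3, the chromatin remodeller gene Chd2, Trappc9, the GTPase gene Rab39b, Zfp958, the adhesion molecule gene Lsamp and the protease gene Prss12, with lowest percentiles from 97.8 to 98.9. The regions near Chd2 and Prss12 were the starts of Chaserr and Snhg8. At the other end, a region 6.53 kb from Tmem132c had a lowest percentile of 0.248, in control 2.

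Regions close to one another were the exception. The median gap between neighbouring regions was 347 kb, and 131 of 3065 neighbouring pairs (4.27%) lay within 10 kb. Of 16527 intervals between genes, 2307 held at least 1 region, 555 held 2 or more, and the fullest held 6. These were the intervals between Chd2 and Fam174b, between Rybp and Shq1 and between Zfp236 and Zfp516. Intervals between converging genes had 4.15 regions per Mb, those between diverging genes 3.97 and those between genes in tandem 3.51.

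Regions were near 2466 of 21631 protein-coding genes (11.4%). Of these genes 1983 had 1 region, 382 had 2 and 101 had 3 or more. Genes with a shared region at a gene end had 4.86 intergenic regions per Mb of their nearest intergenic DNA, against 2.88 for genes without. The most, 7, lay at Zfp516, a zinc finger gene, followed by Chd2 and the glutamate transporter gene Slc1a3 with 6 each. E2f7, an E2F repressor gene, the corepressor gene Irf2bp2, Nrep and the sorting nexin gene Snx5 had 5 each. Haao, the Notch target gene Hes1, the nuclear factor I gene Nfib, Shq1 and the nuclear lamina gene Tmpo had 4 each. They are 5 of the genes tied at 4, taken by the higher median lowest percentile, since 24 genes had 4 or more. Shox2 and Nkx2-5 had 0, so none of the regions described here had either gene as its nearest.

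The 6 regions of Chd2 ran from 16.9 to 86.5 kb beyond the gene. The one at the Chaserr start had percentiles of 99.3, 98.7, 98.6 and 99.5 in control 1, control 2, mutant 1 and mutant 2. The one 76.8 kb away had 93.1, 93.5, 89.0 and 89.7, with both controls above both mutants, as at 42.8 kb with 72.7, 76.2, 68.6 and 63.5. At 53.8 kb both mutants were above, with 91.2, 87.3, 93.2 and 93.6. The one 86.5 kb away had 49.4, 18.7, 37.2 and 55.5, with the controls at either side of mutant 1. Around Slc1a3, 3 regions lay downstream and 3 upstream, and the strongest, 95.7 kb upstream, had percentiles of 97.4, 96.6, 97.2 and 96.4.

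Genes of palate development, signalling, growth and matrix, and ubiquitously used genes, were described through 17 lists with 249 distinct genes. Of these, 96 genes (38.6%) had at least 1 region, against 11.4% of all genes, and the 145 regions amounted to 7.38 per Mb of nearest intergenic DNA, against 3.86 for all genes. The lists were drawn up with earlier results of these data known, so these values are descriptions. Densities ran from 2.55 per Mb for the TALE homeobox genes to 15.4 for the AP-1 genes, and the latter rests on 7 regions in 0.453 Mb. The ubiquitously used genes had 3 regions at 2 of 15 genes (13.3%), or 8.78 per Mb in 0.342 Mb. Palate mesenchyme transcription factors had 6.87 per Mb, so a density above 3.86 was not particular to palate genes.

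**Figure D3:**
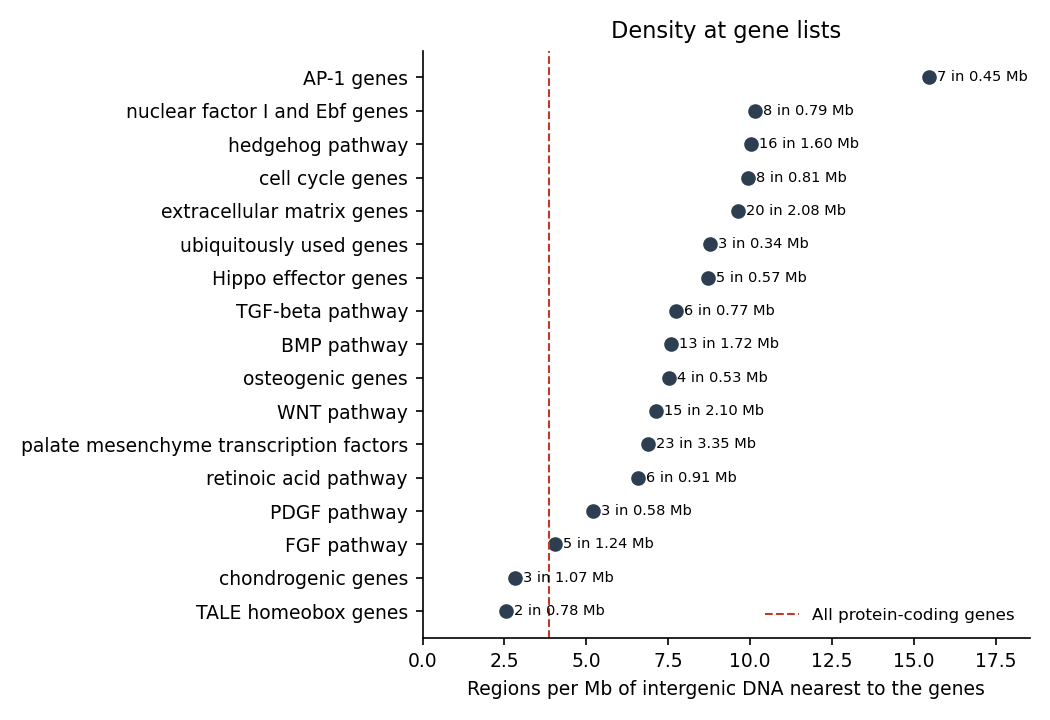
Shared intergenic regions per megabase of intergenic DNA nearest to the genes of each list (points), with the number of regions and the megabases beside each point; the dashed line is the value over all protein-coding genes, 3.86 per Mb. Of the 17 lists, TALE homeobox genes (2.55) and chondrogenic genes (2.82) lie left of the line.

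The hedgehog pathway, which carries Shh signals from palate epithelium to mesenchyme, had 16 regions at 8 of 16 genes. They lay at the coreceptor genes Gas1 with 4, Boc with 2 and Cdon with 1, at the receptor gene Ptch1 with 2, and at the effector genes Gli3 with 4 and Gli2 with 1, besides 1 each at the forkhead genes Foxd1 and Foxd2. The strongest of Gas1, 63.8 kb downstream (chr13:60110183-60111041), had fold enrichments of 10.8, 7.75, 12.5 and 10.3, with control 2 lowest and control 1 between the mutants. The other 3 lay 15.9, 48.9 and 65.3 kb upstream. Of the Gli3 regions, 1 at 42.1 kb upstream had ranks of 28.9, 30.3, 40.2 and 40.9 and 1 at 36.7 kb upstream had 7.61, 15.5, 27.7 and 24.98, with both mutants above both controls. One 12.1 kb downstream had 17.0, 31.0, 5.200 and 5.015, and 1 at 29.5 kb downstream had 55.7, 50.7, 48.6 and 47.8, both with both controls above. Of the 16 hedgehog regions both mutants ranked above in 4 and both controls in 4. Among all shared regions these shares were 17.6% and 18.0%, and a difference was not tested. The rank is the percentile of a region among the 18904 regions held by all libraries, worked out within each library. Shh, Gli1 and Foxf2 had 0, and no region of all 4 libraries at a gene end either.

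Transcription factors of palate mesenchyme had 23 regions at 15 of 33 genes. Mef2c had 4 and Six2 had 3. Osr2 and Pax9, both needed for palate growth, and Mn1 had 2 each, and Msx1, Alx1, Alx4, Prrx1, Osr1, Meox2, Lhx8, Hand2 and Tfap2b had 1 each. The strongest Mef2c region, 78.1 kb downstream, had percentiles of 77.9, 70.6, 81.1 and 83.7, and the weakest, 42.2 kb upstream, had 61.3, 15.0, 36.9 and 68.1. The Six2 region 16.9 kb downstream had ranks of 11.3, 11.7, 24.4 and 29.2, with both mutants above both controls. Of the 23 regions both mutants ranked above in 6 and both controls in 4, against 17.6% and 18.0% of all shared regions. Among the nuclear factor I and Ebf genes, 5 of 8 had a region, and the Nfib region 6.52 kb away had percentiles of 94.0, 86.1, 91.3 and 92.6.

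Extracellular matrix genes had 20 regions at 10 of 22 genes. Tnc, the tenascin C gene, had 4, all upstream, at 20.6, 29.5, 39.0 and 82.5 kb. The nearest had percentiles of 88.0, 74.0, 80.4 and 79.2, and that at 39.0 kb 29.2, 5.90, 13.8 and 36.6. Postn, the periostin gene, had 3 downstream regions from 22.4 to 87.3 kb although no shared region lay at its ends. Col1a1, Col1a2, Col6a1, Col6a3 and Sparc had 2 each. The Col1a1 region 39.0 kb away had percentiles of 32.7, 7.83, 36.3 and 53.3.

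In the BMP pathway, 13 regions lay at 8 of 21 genes, and most were close, with a median distance of 6.09 kb. They gathered at the Id genes, targets that hold back differentiation, with 3 at Id1 and 2 each at Id2 and Id3, and at the inhibitory Smad genes, with 2 at Smad7 and 1 at Smad6. The antagonist genes Nog and Chrd and the ligand gene Bmp7 had 1 each. The 3 Id1 regions lay 1.10, 1.95 and 6.46 kb away, and that at 1.95 kb had percentiles of 76.8, 75.5, 73.2 and 74.4. The WNT pathway had 15 regions at 11 of 23 genes, 3 of them at Sfrp2, a gene of a secreted WNT inhibitor. The TGF-beta pathway had 6 at 6 of 15 genes and the FGF pathway 5 at 5 of 14, among them Spry2, whose region 83.3 kb upstream had percentiles of 88.8, 85.9, 90.5 and 91.3.

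Several single regions near signalling and growth genes were strong in every library. The 2 regions of Fos, an AP-1 gene, lay 18.4 kb upstream with percentiles of 98.2, 97.0, 98.8 and 97.6 and 8.76 kb downstream with 95.3, 91.6, 93.3 and 92.5. A region 7.50 kb from Crabp2, a gene of a retinoic acid carrier, had 95.01, 96.5, 96.6 and 96.2. One 26.1 kb from the Hippo effector gene Tead4 had 95.6, 94.7, 96.2 and 93.8. At Hes1 the region 28.9 kb away had 96.1, 85.4, 91.4 and 84.7, and the groups overlapped. Osteogenic genes had 4 regions at 3 of 12 genes (7.53 per Mb), and chondrogenic genes 3 at 2 of 11 (2.82 per Mb). The single Runx2 region, 40.1 kb downstream, was weak, with 33.3, 3.47, 11.0 and 27.4, and the 2 Sox6 regions were stronger, at 80.3, 78.4, 74.2 and 70.5 for that 59.3 kb away.

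Noncoding genes were found in many regions. In all, 953 regions (30.9%) overlapped a noncoding gene of the RefSeq table, and 717 had their midpoint inside a lncRNA. Among intergenic regions of only 1 to 3 libraries the share was 21.8%, and among shared regions beyond 100 kb it was 23.6%. Starts of lncRNAs lay in 7.84% of the regions, against 2.67% of those in 1 to 3 libraries and 3.51% of those beyond 100 kb. None of these shares was adjusted for the width of the regions. Pseudogenes were met by 46 regions and small nuclear RNA genes by 17.

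Seen from the lncRNAs, few starts lay in the regions. Of 5215 windows of 4260 lncRNA genes whose start lay 1 to 100 kb from a gene, 297 starts of 257 genes (5.70%) fell in one of the 3085 regions, and 4720 (90.5%) fell in no region of any library. The share was higher with more CpG, from 0 of 377 starts without a CpG in the window through 1.79% with 1 to 4, 6.13% with 5 to 9 and 21.6% with 10 to 19, to 58.3% of 115 starts with 20 or more. The median window inside the regions had 10 CpG and 55.0% GC, that outside every region 3 CpG and 47.3% GC, and that of all protein-coding starts 13 CpG and 56.7% GC. A GC box was present in 43.8% of the windows inside, in 7.92% of those outside and in 46.7% of protein-coding starts. Windows share bases where a gene has several starts, and no test was made.

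Other motifs, searched on both strands in the same windows, differed less or in the other direction. The GATA motif AGATAA was in 7.07% of windows inside and 15.8% outside, and the CREB motif TGACGTCA in 3.37% and 0.720%. The homeobox core TAATTA was in 6.40% and 7.97%, the TALE motif TGACAG in 16.5% and 19.96%, and the AP-1 motif TGANTCA in 7.41% and 11.0%. The E-box CANNTG (69.0% and 81.1%), the CCAAT box (34.7% and 37.4%), the TEAD motif GGAATG (17.8% and 17.7%), the SOX motif ACAATG (9.76% and 15.8%), the RUNX motif TGTGGTT (5.39% and 6.99%) and the FOX motif TGTTTAC (3.03% and 5.89%) were counted as well. The ETS motif CCGGAAG was in 6.40% and 2.90% of windows, and the YY1 motif AAGATGGC and the EBF, NRF1 and NFI motifs were each in at most 2.22% of either set. Motifs were counted whether or not they overlapped one another, and a match describes letters, not a bound site.

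Regions with a lncRNA start were stronger than intergenic regions overlapping no noncoding gene. Their median percentile was 65.7, 55.5, 64.4 and 67.2 in control 1, control 2, mutant 1 and mutant 2, and that of the 2132 regions overlapping no noncoding gene was 54.4, 40.8, 52.7 and 56.6. The 242 regions were higher in 4 of 4 libraries, by 12.1 ± 1.80 points (SD, n = 4; two-sided exact sign-flip permutation p = 0.13, the smallest possible, adjusted p = 0.13 over 6 comparisons). In the upper 50% of each list the difference was 5.92 points. Fold enrichment was higher by 0.292 ± 0.0897 (SD, n = 4; exact permutation p = 0.13). Median peak widths were 983, 973, 970 and 1031.5 bp against 829.5, 799, 832.5 and 836.5 bp. A wider region can hold a start more readily, so width is given as description only. When the 3085 regions were ordered by lowest percentile and cut into 10 equal classes, the share with a lncRNA start was 2.91% in the weakest class and 19.1% in the strongest. Within the regions, the 157 starts with 10 or more CpG had a median lowest percentile of 61.6 and the 140 with fewer had 45.7.

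Summits are given for the printed starts in the direction of transcription. Starts were kept where they lay inside a region, which by itself places them near a summit. For Crnde the summits lay 46, 57, 10 and 42 bp past the start and for D130051D11Rik 45, 32, 42 and 33 bp. For Chaserr they lay before it, at −228, −228, −315 and −222 bp. The percentiles of the D130051D11Rik region were 98.5, 98.3, 98.5 and 97.2, those of the Crnde region 92.6, 91.9, 90.4 and 90.6, those of the Dancr region 88.4, 84.1, 89.99 and 91.1 and those of the Kantr region 86.3, 86.4, 81.0 and 88.4. In each of these 4 regions the spread over the libraries was under 10 points.

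**Figure D4:**
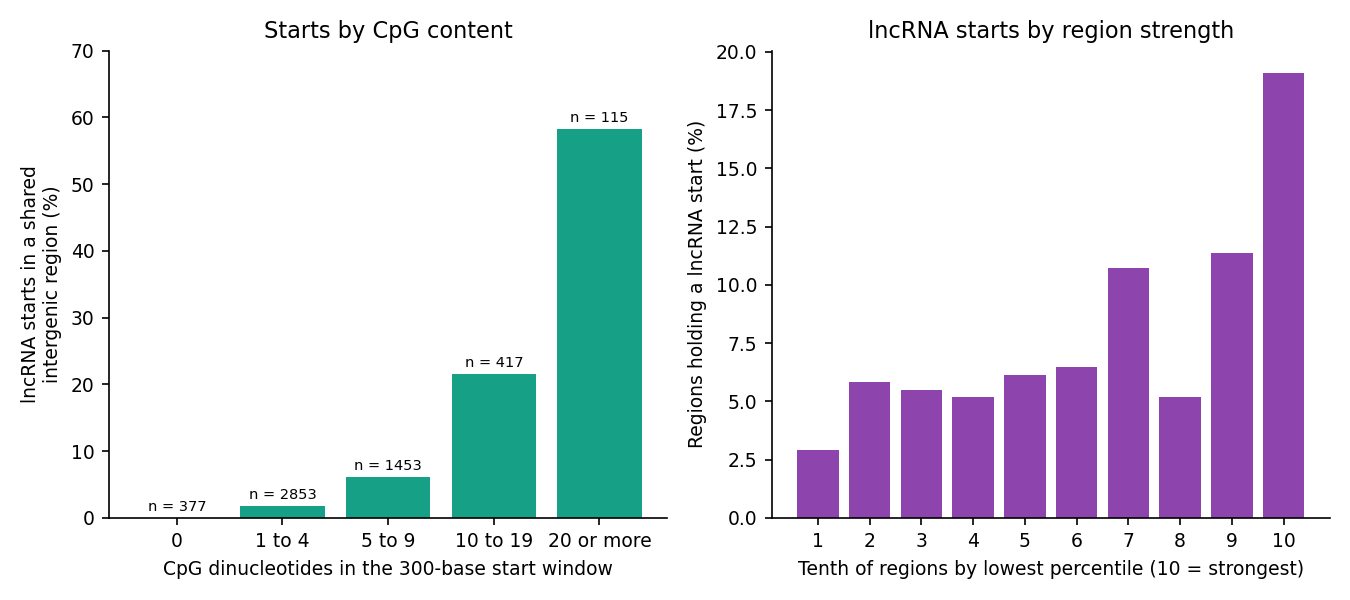
Left, percent of lncRNA starts that lay in a shared intergenic region, by CpG dinucleotides in the 300-base window, with the number of starts above each bar. Right, percent of the 3085 regions that held a lncRNA start, by 10 equal classes of lowest percentile. The bars rise from 0 to 58.3% on the left and, with dips, from 2.91% to 19.1% on the right.

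Transfer RNA genes marked a small class of wide regions. Of 302 tRNA genes 1 to 100 kb from a protein-coding gene, 69 (22.8%) lay in 47 of the regions and 188 in no region. Counting any overlap, 48 regions (1.56%) met a tRNA gene, against 0.376% of those in 1 to 3 libraries and 0 beyond 100 kb, without adjustment for width. Of the 48 regions, 14 were on chromosome 13. Their median peak width was 1192.5, 1184, 1216 and 1208.5 bp against 829.5, 799, 832.5 and 836.5 bp in regions without a noncoding gene. A wider region can meet a gene more readily, so width is description here too. The percentile was higher by 10.1 ± 4.08 points in 4 of 4 libraries while the fold enrichment was lower in 4 of 4, with a difference of −1.12 ± 0.326 (both SD, n = 4; exact permutation p = 0.13). The strongest held n-TRcct1, an arginine tRNA gene 1.18 kb from Fmc1 (chr6:38533147-38534217), with percentiles of 96.9, 93.9, 95.04 and 96.2. A region 15.7 kb from Trim55 held 4 tRNA genes (chr3:19627923-19629380) and had 92.6, 92.7, 93.0 and 94.3.

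MicroRNA hairpins were rarer, with 10 in 8 regions of 217 hairpins at 1 to 100 kb. The mature sequences of 6 miRNAs are printed with the seed, bases 2 to 8, in capitals, to show which of them share target sites. The miR-132-3p and miR-212-3p pair, whose hairpins lie in 1 region, shares the seed AACAGUC, and the others have seeds of their own.
mmu-miR-132-3p: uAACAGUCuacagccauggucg
mmu-miR-212-3p: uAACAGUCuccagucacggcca
mmu-miR-210-3p: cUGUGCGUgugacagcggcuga
mmu-let-7i-5p: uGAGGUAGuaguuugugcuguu
mmu-miR-203-3p: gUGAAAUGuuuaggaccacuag
mmu-miR-193a-3p: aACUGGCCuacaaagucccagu

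The region with the miR-210 hairpin, an RNA known for its rise in low oxygen, was the strongest of these. It lay 3.21 kb from Rassf7 (chr7:141221332-141222412) and had percentiles of 97.6, 95.6, 96.0 and 96.4. The let-7i region, 6.03 kb from Mon2, had 68.9, 65.7, 64.5 and 62.3. The region of miR-132 and miR-212, 2.56 kb from Ovca2, had 52.6, 34.4, 69.2 and 49.7, and mutant 1 was the highest of its libraries. That of miR-203, a miRNA of epidermis, had 41.4, 32.1, 26.8 and 9.36, and that of miR-193a, near Rab11fip4, had 22.5, 1.67, 32.7 and 51.5. The miR-713 region had 36.7, 37.4, 58.9 and 64.6. By rank, both controls lay above both mutants at miR-203, miR-210, let-7i and miR-7671. Both mutants lay above both controls at miR-193a, miR-713 and miR-7688, and at miR-132 and miR-212 the groups overlapped. Among all shared regions both controls ranked above in 18.0% and both mutants in 17.6%. A difference from these shares was not tested in the 8 regions.

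Between the genotypes no shift of the 3085 regions as a whole was detected. The median rank among the regions held by all libraries was 31.1 and 31.0 for the controls and 30.9 and 31.0 for the mutants. The mutant minus control difference was −0.114 points (2 against 2 libraries, two-sided exact permutation p = 0.667). That design cannot give a p under 0.33, and the sign of the difference turned in some alternative settings. For single regions, the mutant minus control difference in mean rank stayed within 10 points in 72.7% of the regions, against 79.5% of all shared regions.

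Without a gap limit, regions with both libraries of one genotype above both of the other were about as frequent as among all shared regions. With a gap of at least 10 points they were more frequent, in both directions. Both mutants ranked above both controls in 566 regions (18.3%), against 17.6% of all 18904 shared regions. Both controls ranked above both mutants in 554 (17.96%), against 18.0%. With a gap of at least 10 points between the groups, 100 regions (3.24%) were higher in the mutants against 2.31% of all shared regions, and 106 (3.44%) higher in the controls against 2.2%. At gene ends, where ranks were higher, the shares with such a gap were 1.06% and 1.68%, and beyond 100 kb they were 6.36% and 1.97%. The median absolute gap in rank was 7.97 points between the controls and 7.19 between the mutants, and it ran from 7.29 to 8.55 over the 4 pairs across genotypes. The control pair thus lay within the range of the pairs across genotypes and the mutant pair just below it. Over all shared regions the median gap was smaller, at 6.11 points between the controls and 5.57 between the mutants. Across genotypes it ran there from 5.62 to 6.38. The lists hold no read counts, so these ranks cannot be tested region by region.

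**Figure D5:**
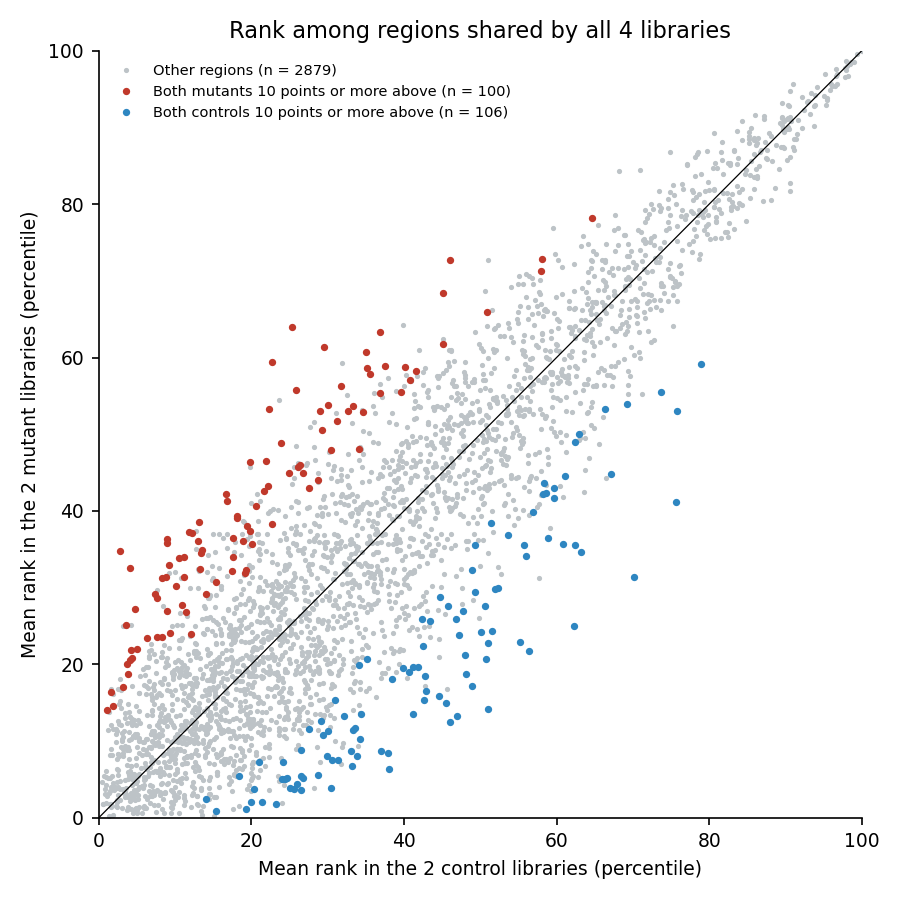
Mean rank in the 2 mutant libraries against mean rank in the 2 control libraries (both in percentiles among the 18904 regions held by all libraries) for the 3085 shared intergenic regions, with the diagonal of equal rank. Red points (100) and blue points (106) have a gap of at least 10 points between the groups, and neither kind occurs among the regions ranked highest in both groups.

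The 5 regions with the widest gap in favour of the mutants lay near Lin7c, a scaffold protein gene, Kcnf1, a potassium channel gene, Npy1r, a neuropeptide Y receptor gene, Palmd and Galnt3, a glycosyltransferase gene. They were picked by that gap, and their values describe it. The Lin7c region (chr2:109823117-109824221, 67.2 kb upstream) had ranks of 27.4 and 18.04 for the controls and 64.1 and 54.9 for the mutants, with fold enrichments of 8.34 and 6.47 against 11.0 and 9.44. The Kcnf1 region (chr12:17097682-17098416, 74.1 kb downstream) had ranks of 1.80 and 3.803 against 40.2 and 29.4. The Galnt3 region (chr2:66140020-66141183, 15.5 kb upstream) had 35.4 and 34.8 against 63.7 and 57.8. In all 3 the groups did not overlap, which the choice fixed.

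In the other direction the widest gaps lay near 1810024B03Rik, Oat, the ornithine aminotransferase gene, Slc38a9, a lysosomal amino acid transporter gene, Gm15319 and Ndfip1, an adaptor gene of ubiquitin ligases. The region 3.24 kb from 1810024B03Rik (chr2:127182645-127183437) had ranks of 69.6 and 70.8 for the controls and 30.5 and 32.3 for the mutants, with fold enrichments of 13.4 and 11.8 against 9.50 and 10.1. The Oat region (chr7:132551204-132552265, 5.74 kb downstream) had ranks of 59.3 and 65.3 against 24.1 and 26.01. The Slc38a9 region (chr13:112759960-112760860, 21.7 kb downstream) had 53.5 and 48.6 against 17.3 and 11.1. The region near Gm15319 (chr8:20424134-20425111) overlapped the pseudogenes 2610005L07Rik and Gm20584 and had fold enrichments of 20.1 and 16.8 against 10.4 and 12.2. These too were picked by the gap, which favours regions whose libraries of a genotype are alike.

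Among regions with a lncRNA start, both mutants ranked above both controls in 31 of 242 (12.8%) and both controls above both mutants in 46 (19.01%), to be read against the 17.6% and 18.0% of all shared regions. With a gap of at least 10 points the order turned, with 12 of the 242 higher in the mutants and 6 higher in the controls. Among all shared regions 2.31% and 2.2% had such a gap. For the 48 regions with a tRNA gene the numbers without a gap limit were 6 (12.5%) and 13 (27.1%). A difference between these classes and the other regions was not tested.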

How the data were processed

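The data were 4 lists of ATAC-seq peaks, 2 of control and 2 of mutant palate mesenchyme, grouped by the genotypes in the labels. The authors deposited a headerless list for each library in the narrowPeak layout, on mm10 according to the submitters' processing notes. Not given in the sources used here are the aligner, any shift for the transposase, and the peak caller. Per peak, the deposited columns gave a score, a fold enrichment, a −log10 p-value, a −log10 q-value and the summit's offset from the peak's start. What background the enrichment refers to is likewise unknown, and the score was not used. These values are the authors' own and only ranked or described peaks within a library. Peak numbers in the deposited names ran past the number of rows, and 23.8% to 27.8% of the numbered peaks were listed, so peaks had been taken out by an unknown step. Read depth is unknown, and no counting error can be given.

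Peaks were merged, and each region was classed by its midpoint and its closest gene among 21631 protein-coding genes of the RefSeq table (GRCm38.p6) with pandas 2.3.3 and numpy 2.4.6. Both steps were checked against bedtools 2.31.1. Calls of a rank gap of at least 10 points were checked on simulated data, and the permutation tests were not. The strand was taken from RefSeq start windows, which 79.9% of these genes had. Medians were compared across libraries with exact sign-flip permutation tests, and genotypes with an exact permutation test of 2 against 2 libraries. Both tests were written out in numpy, with Benjamini-Hochberg adjustment by statsmodels 0.14.6. Binomial intervals for the alternative settings came from scipy 1.17.1. The planned motif search at summits was not run, since no genome sequence was used. Motifs were counted in RefSeq start windows of 300 bases instead, a choice made after seeing the data, as were the noncoding gene classes.

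The members and lists were chosen with earlier results of these data known. Named were Shox2 and Nkx2-5, the 12 genes with the most regions (ties by higher median lowest percentile), the 2 genes of each list with the most, the 10 regions with the highest lowest percentile, the 5 per direction with the widest gap in rank and those nearest to each limit of the rule. Other genes of the 17 lists, the lncRNAs, tRNA genes and miRNAs were named after their values were seen, and some genes of the lists are not reported here by name. Alternatives were the upper 50% of each list, equal peak numbers, a shared overlap of 100 bp, a limit of 50 kb, all genes of the table, the mean summit as position, a gap of 10 points, a replicate block and leaving out each library.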

Additional observations from a re-analysis of the deposited data

How the results depend on the processing

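Read depth is unknown and limits every call, and with 4 libraries no exact p could pass 0.05. The settings for lncRNA starts and for the upstream share were chosen after seeing the data. In the upper 50% of each list 1058 regions remained by the rule, 10.1% of shared regions under 2000 bp, with 51 at 46 listed genes, 183 higher in both controls, 209 higher in both mutants and 12.1% with a lncRNA start. There the width against regions beyond 100 kb turned to +8.0 bp from −11.1 bp, and the median rank, mutant minus control, to 0.0369. That rank difference was 0.0966 with equal peak numbers, where the intergenic share was 15.5%. With all genes of the table, noncoding ones included, the share was 15.7% and the median distance 13.7 kb. A gap of 10 points left 106 regions higher in both controls and 100 in both mutants. Leaving out each library in turn, where fewer libraries must agree, gave 1098 to 1405 regions higher in both controls, 1074 to 1366 higher in both mutants, a share of 17.3% to 19.03%, lncRNA starts in 6.82% to 7.57% and a rank difference of −0.477 to 0.114. It was 0.0707 without control 1 and 0.114 without mutant 1. The causes were not tested. With a replicate block, pairing libraries of the same number, 825 regions were higher in both controls and 818 in both mutants. Deviations of same-numbered libraries correlated at 0.0724 over the regions, below the 0.1 taken to pair samples, so they share only a number. The other 131 values for comparisons kept their direction, or stayed within their interval or 1.5 times the main count, but some differences moved in size. In the upper 50% the percentile difference from gene ends was −10.5 instead of −25.4, the enrichment differences from gene ends, genes and regions beyond 100 kb were −0.630, 0.150 and −0.100, and the lncRNA-start difference was 5.92 instead of 12.1. Ranked by fold enrichment, the rank difference between genotypes was −0.0370.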
